A study of Drosophila melanogaster with 8 samples.

Results

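Genes for digestive serine proteases, carbohydrate-digesting enzymes, a lysozyme and mucins were examined in RNA from the wing imaginal disc, the larval epithelial sac that forms the adult wing and part of the thorax. The 31 genes are those of the 3850 genes named in the authors' deposited table whose symbol begins with Jon, Lys, Muc, Mal-, Amy or Peritrophin, or ends in Try. That table lists transcripts whose mean differed at least 1.5-fold between wildtype and BEAF-32 mutant, so every member was chosen by its difference between genotypes, and that difference is given here as a description. The members are 14 Jonah proteases, 4 trypsins, 4 maltases, 7 mucins, the amylase-related gene Amyrel and the lysozyme gene LysS. A RefSeq gene table holds 64 symbols that fit the same rule, and the other 33, among them all 3 Peritrophin genes, are not listed and were not analysed here. Of the 8 Lys symbols in that count, LysRS encodes a tRNA synthetase and no lysozyme.

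The Drosophila midgut secretes these enzymes into its lumen. Jonah proteins are serine endopeptidases, trypsins cut after basic residues, amylases and maltases break starch and its fragments into sugars, and lysozymes cut bacterial cell wall. Mucins are heavily glycosylated secreted or surface proteins, made by many epithelia and also known from the gut lining, where they coat and protect cells. The wing disc is not a digestive tissue.

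All 8 samples were from larvae of the third instar and carry the strain label Orgon R. They were either wildtype or homozygous for a BEAF-32 mutation whose allele the labels do not name, with 4 one-colour Cy3 NimbleGen arrays per genotype. BEAF-32 encodes a chromatin boundary protein. The mutants stand for a single genotype label, and no rescued or heterozygous group was among the samples. The titles of a genotype carry the numbers 1_1, 1_2, 2_1 and 2_2, whose meaning is not stated. The series' design text speaks of biological and of experimental replicates, 2 of each, without saying which number marks which. Values are log2 array values, and are not compared between genes, because each gene was read by its own probes.

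Within a genotype, arrays with a common first number correlated at 0.9977 to 0.9986 over all transcripts, against 0.9662 to 0.97 for wildtype arrays and 0.9852 to 0.987 for mutant arrays with different first numbers. On this basis and that of the design text such arrays were treated as a pair and averaged, which left n = 2 per genotype. Neither the labels nor the design text ties the pairs to separate larvae, so the p-values measure only the spread between these arrays, which may be technical. The BEAF-32 transcript read 10.09, 11.94, 10.28 and 10.15 on the wildtype arrays and 8.40 to 8.49 on the mutant arrays, and array 1_2 stood above the rest of its genotype. For marker lists the linear signals of the listed genes were summed on each array and the log2 of that sum is given, in which the brightest probes weigh most. For 12 listed salivary gland markers it was 17.71 to 17.87 on wildtype and 13.60 to 13.81 on mutant arrays. For 9 listed fat body markers it was 17.30 to 17.35 and 13.26 to 15.13, and for 8 listed haemocyte markers 13.34 to 14.02 and 15.30 to 15.42. Of the wing disc markers 9 of 19 were listed, with sums of 14.96 to 15.18 and 14.55 to 14.66. Of these 9, 7 were lower in the mutant and 2, rn and wg, were higher. All these sums hold only genes chosen for a difference of at least 1.5-fold between genotypes. A gap between genotypes is thus partly built in, and markers that changed less are left out. The part of other tissues in any difference below was not tested, and in bulk RNA fewer cells of a type cannot be told apart from less RNA per cell.

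By genotype mean, 23 of the 31 genes were lower in the mutant and 8 were higher. Jonah proteases made up most of the lower genes, at 13 of 14, with Jon65Aii the exception. The trypsins epsilonTry, alphaTry and betaTry, Amyrel, Mal-A5, LysS and the mucins Muc68Ca, Muc68E, Muc96D and Muc11A were also lower. The higher genes were Jon65Aii, thetaTry, the maltases Mal-A1, Mal-B1 and Mal-B2, and the mucins Muc30E, Muc4B and Muc91C. The median difference was -1.31 on the log2 scale, beside 0.057 over all 16108 features. For 19 genes each mutant array was below each wildtype array, beside 23.6% of all features, and for 5 each was above, beside 26.1%. The other 7 overlapped, and 49.7% of all features did not. Of the 3850 named genes, chosen by the same contrast, 410 overlapped, and limma called 719 lower and 450 higher. limma called 6 of the 31, namely Jon25Bii, Jon65Aiv, LysS, Mal-A5 and Muc68E as lower and Mal-B2 as higher, beside 7.26% of all features (4.46% lower and 2.79% higher). How these calls moved when pairs were left out is given in the closing section, beside counts over all features. Since the same contrast chose the members, nothing is read from these counts.

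**Figure D1:**
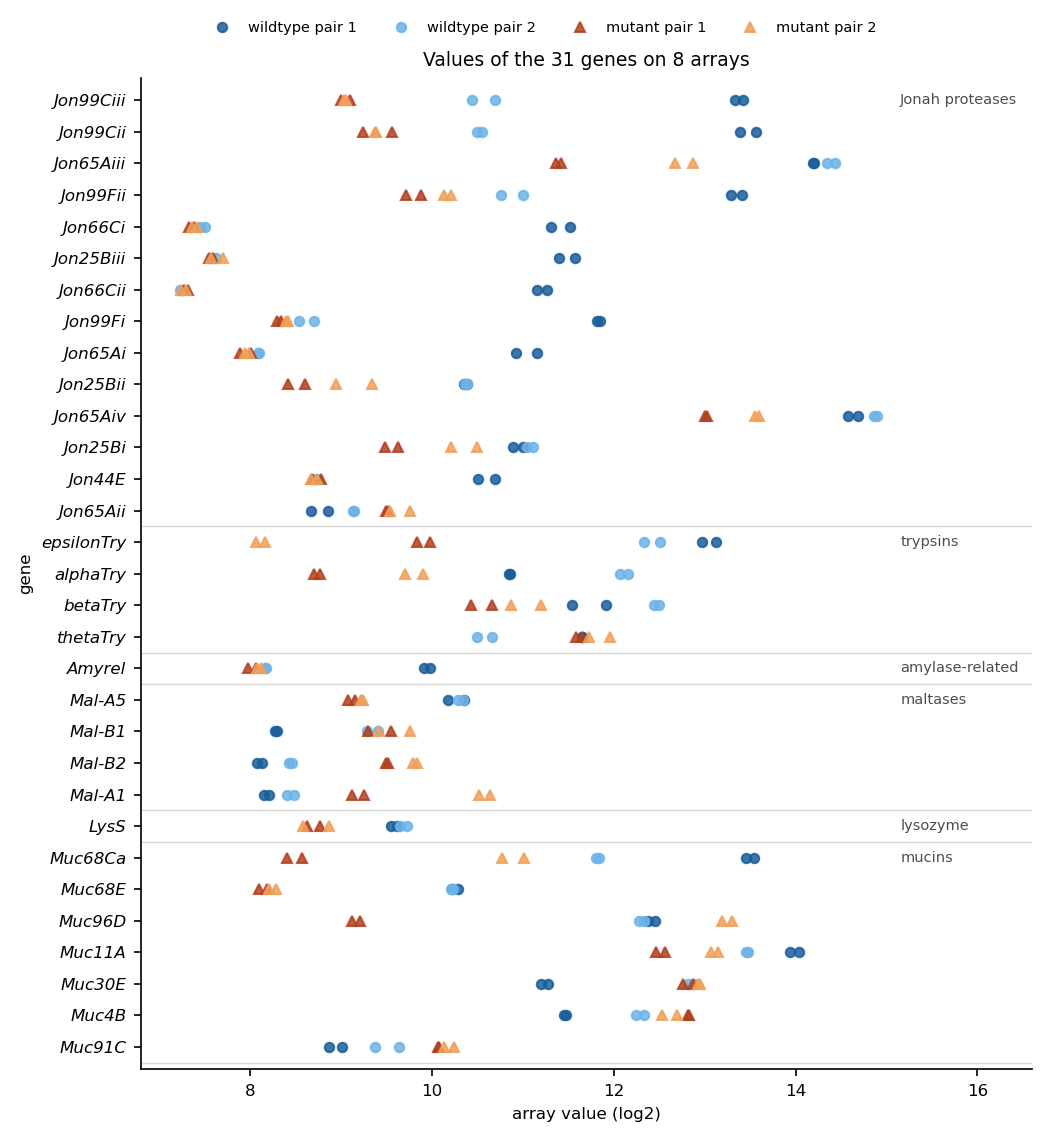
Log2 array value (horizontal) of each of the 31 genes (rows, grouped by family) on the 4 wildtype arrays (circles, 2 shades for the 2 pairs) and the 4 mutant arrays (triangles, likewise). For Jon66Ci, Jon66Cii, Jon25Biii, Jon99Fi, Jon65Ai, Jon44E and Amyrel the dark circles of wildtype pair 1 stand far to the right, while wildtype pair 2 lies with the mutant arrays.

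The smallest folds among members were 1.53 for thetaTry and 1.54 for Jon65Aii, and the largest fold among transcripts with no name was 1.54. Members just outside the limit cannot be given by name, because unlisted transcripts carry only an identifier.

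The Jonah proteases fell into distinct patterns when the wildtype pairs were read separately. Jon66Cii read 11.16 and 11.26 on wildtype pair 1 but 7.25 and 7.23 on wildtype pair 2, and 7.32, 7.28, 7.24 and 7.30 on the mutant arrays. Wildtype pair 2 thus lay among the mutant arrays, and only wildtype pair 1 stood high. Its difference between genotypes was -1.94 against the wildtype mean of 9.22 ± 2.81 (SD, n = 2). Against wildtype pair 1 alone it was -3.93, and against wildtype pair 2 alone it was 0.05. The wildtype pairs differed by -3.97 (SE 0.06, pair 2 minus pair 1, limma adjusted p = 1.1e-09), which ranked 1 by size among 16108 features in that comparison.

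Its neighbour Jon66Ci and the Jon25B gene Jon25Biii showed the same picture. Jon66Ci read 11.52 and 11.31 on wildtype pair 1, 7.45 and 7.51 on wildtype pair 2, and 7.32 to 7.41 on the mutant arrays. Jon25Biii read 11.58 and 11.40, then 7.57 and 7.62, and 7.55 to 7.70 on the mutant arrays. These came next after Jon66Cii by size of the difference between wildtype pairs, at -3.94 and -3.89 (limma adjusted p = 2e-09 for both). On 6 of 8 arrays each of the 3 genes lay below the lower quartile of all transcripts, which was 7.946 to 8.159, and the lowest value of Jon66Cii was 0.37 above the lowest value on its array. No measure of background per probe was at hand, and how far such low values can still fall is not known.

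Jon99Fi, Jon65Ai and Jon44E followed with smaller steps. Jon99Fi read 11.81 and 11.85 on wildtype pair 1, 8.53 and 8.70 on pair 2, and 8.30 to 8.42 in the mutant. Jon65Ai read 11.15 and 10.92, then 8.09 on both arrays of pair 2, and 7.89 to 8.01 in the mutant. Jon44E read 10.69 and 10.50, then 8.74 and 8.71, and 8.66 to 8.78 in the mutant. The mutant mean minus wildtype pair 1 was -3.47, -3.08 and -1.88 for these genes, and minus wildtype pair 2 it was -0.25, -0.13 and -0.00. The wildtype pairs differed by -3.21, -2.94 and -1.88 (limma adjusted p = 3.1e-09, 2.1e-08 and 1.8e-07).

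A further set of Jonah genes was high in wildtype pair 1, intermediate in wildtype pair 2 and lowest in the mutant. Jon99Ciii, the Jonah gene with the largest difference between genotypes, read 13.42 and 13.33 on wildtype pair 1, 10.69 and 10.44 on pair 2, and 9.0, 9.09, 9.03 and 9.05 on the mutant arrays. All mutant arrays were below all wildtype arrays, and the mutant pairs were nearly equal. The difference between genotypes was -2.93, or 7.61-fold, from 11.97 ± 1.99 to 9.04 ± 0.00 (SD, n = 2). It was -4.34 against wildtype pair 1 and -1.52 against pair 2. Jon99Cii gave -4.08 and -1.13, and Jon99Fii -3.37 and -0.90. For these 3 genes the wildtype pairs themselves differed by -2.81, -2.95 and -2.47 (limma adjusted p = 3.9e-08, 8.2e-08 and 1.6e-07). Neither gene sequences nor the probe design were at hand. Signal shared between Jonah genes of like sequence therefore cannot be told apart from separate change.

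The remaining 5 Jonah genes differed by less than 1.5-fold between wildtype pairs. Jon65Aiv read 14.58, 14.68, 14.90 and 14.87 on the wildtype arrays and 13.03, 13.00, 13.60 and 13.55 on the mutant arrays. The genotypes did not overlap, and the difference was -1.46, from 14.76 ± 0.18 to 13.30 ± 0.40 (SD, n = 2). Jon65Aiii lay at 14.19 to 14.43 in the wildtype, at 11.37 and 11.42 in mutant pair 1 and at 12.87 and 12.67 in mutant pair 2. Jon25Bii and Jon25Bi differed by -1.54 and -1.06, with wildtype arrays at 10.35 to 10.39 and at 10.89 to 11.11. Jon65Aii ran the other way, at 8.67 to 9.14 in the wildtype and 9.50 to 9.76 in the mutant.

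Among the trypsins, epsilonTry had the largest difference between genotypes of all 31 genes. It read 13.12, 12.97, 12.50 and 12.33 on the wildtype arrays and 9.83, 9.98, 8.16 and 8.07 on the mutant arrays. Each mutant array was below every wildtype array, and mutant pair 2 was below mutant pair 1. The difference was -3.72, or 13.2-fold, from 12.73 ± 0.45 to 9.01 ± 1.27 (SD, n = 2), and stood at -4.04 and -3.41 against wildtype pairs 1 and 2.

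The neighbouring alphaTry read 10.85, 10.86, 12.15 and 12.06 in the wildtype and 8.77, 8.70, 9.90 and 9.71 in the mutant. Pair 2 was above pair 1 in both genotypes, by 1.25 in the wildtype and 1.07 in the mutant (limma adjusted p = 1.3e-06 and 1.2e-05), and the genotypes did not overlap. The pair numbers are not known to match between genotypes. betaTry was 11.54 to 12.50 in the wildtype and 10.43 to 11.20 in the mutant. thetaTry differed from the other trypsins: it read 11.66 and 11.65 on wildtype pair 1, 10.50 and 10.66 on wildtype pair 2, and 11.58 to 11.95 in the mutant. It was thus higher than wildtype pair 2 by 1.15 and higher than wildtype pair 1 by 0.08. Trypsin genes also resemble each other, and the same limit on shared probe signal holds.

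Of the carbohydrate-digesting enzymes, Amyrel shared the pattern of the Jon66C genes. It read 9.91 and 9.98 on wildtype pair 1, 8.17 and 8.16 on wildtype pair 2, and 8.07, 7.97, 8.12 and 8.08 on the mutant arrays. The mutant mean minus wildtype pair 1 was -1.88 and minus wildtype pair 2 was -0.11 on the log2 scale, with no overlap by array. The wildtype pairs differed by -1.78 (limma adjusted p = 8.1e-08).

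The maltases, which split maltose and related sugars, did not share a direction. Mal-A5 read 10.35, 10.18, 10.34 and 10.28 in the wildtype and 9.15, 9.08, 9.24 and 9.22 in the mutant, a difference of -1.12 that was alike against both wildtype pairs, at -1.09 and -1.14. Mal-A1, formerly Larval visceral protein H, read 8.21, 8.15, 8.48 and 8.40 in the wildtype and 9.12, 9.25, 10.51 and 10.64 in the mutant. The mutant arrays were all higher, and mutant pair 2 was higher still, by 1.39 (limma adjusted p = 1.4e-06).

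Mal-B1 read 8.27, 8.30, 9.40 and 9.28 in the wildtype and 9.55, 9.30, 9.42 and 9.76 in the mutant. Here wildtype pair 1 was the low pair and wildtype pair 2 overlapped the mutant, with differences of 1.22 and 0.16. Its neighbour Mal-B2 was higher by 1.39, from 8.08 to 8.46 on the wildtype arrays to 9.50 to 9.84 on the mutant arrays.

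The lysozyme gene LysS read 9.55, 9.61, 9.72 and 9.65 in the wildtype and 8.63, 8.77, 8.58 and 8.86 in the mutant. The genotypes did not overlap and the pairs of each lay close together. The difference was -0.92, from 9.63 ± 0.07 to 8.71 ± 0.02 (SD, n = 2), and the difference between wildtype pairs was 0.10 (limma adjusted p = 0.34).

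The mucins held the largest differences between mutant pairs. Muc96D read 12.46, 12.38, 12.33 and 12.28 in the wildtype, 9.21 and 9.12 on mutant pair 1, and 13.30 and 13.19 on mutant pair 2. The mutant pairs thus stood on either side of the wildtype arrays. Their mean gave a difference of -1.16, from 12.36 ± 0.08 to 11.20 ± 2.88 (SD, n = 2), which became 0.88 with mutant pair 1 left out. The mutant pairs differed by 4.08 (limma adjusted p = 7.8e-10), which ranked 3 of 16108 features by size.

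Muc68Ca varied in both genotypes. It read 13.45, 13.54, 11.81 and 11.84 in the wildtype and 8.57, 8.41, 11.01 and 10.78 in the mutant, so that every array pair had its own level. No mutant array reached the lowest wildtype array, and the difference was -2.97, from 12.66 ± 1.18 to 9.69 ± 1.70 (SD, n = 2). It was -3.80 against wildtype pair 1 and -2.13 against wildtype pair 2. Wildtype pair 2 minus wildtype pair 1 was -1.67 (limma adjusted p = 6.9e-07), while mutant pair 2 minus mutant pair 1 was 2.40 (limma adjusted p = 1.3e-07).

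Muc68E and Muc11A completed the lower mucins. Muc68E was 10.21 to 10.29 on the wildtype arrays and 8.10 to 8.29 on the mutant arrays, a difference of -2.04 that was -2.06 and -2.02 against the wildtype pairs. Muc11A read 14.04, 13.94, 13.48 and 13.45 in the wildtype and 12.57, 12.47, 13.15 and 13.07 in the mutant. The ranges of Muc11A came near each other without overlap, and the pairs moved in opposite directions within the genotypes.

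Muc30E, Muc4B and Muc91C were higher in the mutant, and for all 3 wildtype pair 1 was the lowest pair. Muc30E read 11.28 and 11.20 on wildtype pair 1, 12.82 and 12.88 on wildtype pair 2, and 12.76 to 12.94 in the mutant. It was 1.64 above wildtype pair 1 and 0.03 above wildtype pair 2. Muc4B was 1.25 and 0.43 above them, and Muc91C 1.19 and 0.62.

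The comparison of wildtype pairs was not the contrast that chose the members, and it covers no condition: it asks whether the arrays of one pair differ from those of the other beyond the spread within pairs. It is not free of the choice either, because a gene high in a single wildtype pair has a raised wildtype mean, which is what the table selected. limma called 14 members lower and 11 higher in pair 2, beside 34.2% and 29.2% of all features, and 6 did not pass, namely Jon25Bii, Jon25Bi, LysS, Mal-A5, Muc68E and Muc96D. So many features passed, 63.4% of all, that the count by itself sets the members little apart. Their sizes were larger, with a median absolute difference of 0.823 beside 0.255 for all features and 0.403 for named genes. At least 1.5-fold, 13 were lower and 5 higher in pair 2, beside 7.93% and 10.2% of all features. At least 4-fold differences were seen in 8 members, all Jonah proteases, beside 0.186% of all features, or 30 in number. Of those 30, 27 were named genes, and 26 of the 27 were among the genes lower in the mutant. The 4-fold members were Jon66Cii, Jon66Ci, Jon25Biii, Jon99Fi, Jon99Cii, Jon65Ai, Jon99Ciii and Jon99Fii, all lower in pair 2. The Jonah median was -2.64. Within pairs, no 2 arrays differed by more than 0.40 for any member. The call of Jon65Aiii, at 0.19 (limma adjusted p = 0.047), was lost in most alternatives that left out an array.

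**Figure D2:**
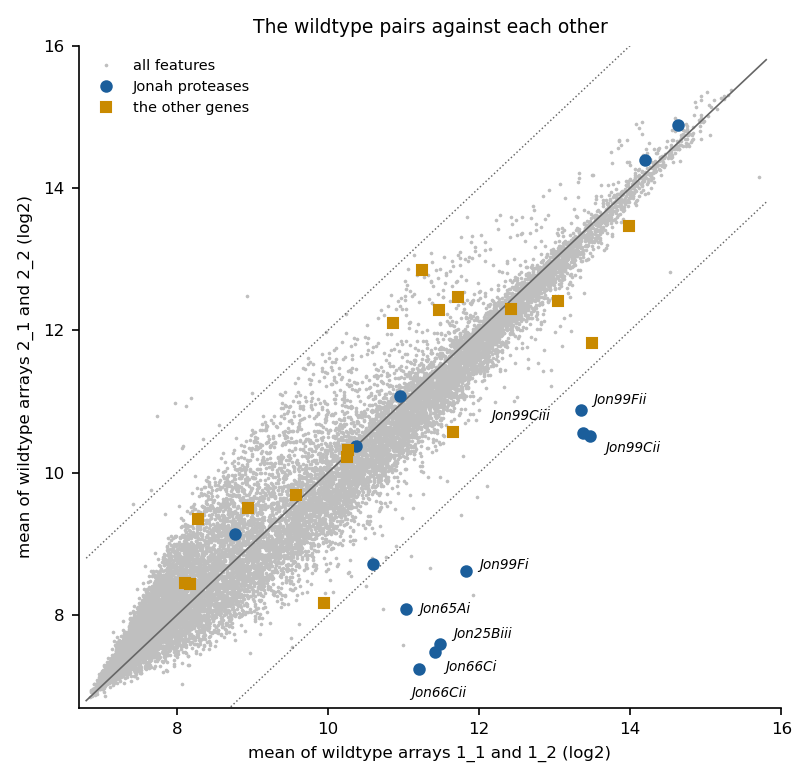
Mean log2 value of wildtype arrays 2_1 and 2_2 (vertical) against that of wildtype arrays 1_1 and 1_2 (horizontal) for all 16108 features (grey), the 14 Jonah proteases (blue circles) and the other 17 genes (orange squares). The solid line marks equal values and the dotted lines a 4-fold difference, and the 8 labelled Jonah genes lie below the lower dotted line.

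For many members the size of the difference between genotypes was not the same against each wildtype pair. The comparisons with either pair share the mutant arrays, and their values are set side by side. Since the contrast over both wildtype pairs chose the members, their counts are partly fixed in advance, and nothing is read from them. Against wildtype pair 1 alone, 23 members were at least 1.5-fold lower and 7 higher, beside 15.9% and 17.1% of all features. Of the 3850 named genes, chosen by the same contrast, 1802 were at least 1.5-fold lower and 1750 higher. Against wildtype pair 2 alone, 16 members were at least 1.5-fold lower and 4 higher, beside 10% and 9.79% of all features. The named genes gave 1449 lower and 1146 higher. The other 11 members were within 1.5-fold. Jonah proteases accounted for 7 of those 11. The median difference over the 31 was -1.54 against pair 1 and -0.65 against pair 2, and that of the Jonah genes -3.22 and -0.58. Against both pairs, 16 members were at least 1.5-fold lower and 3 were higher, beside 8.33% and 5.92% of all features. The 3 higher ones were Mal-A1, Mal-B2 and Muc91C. The 16 lower ones were Jon99Ciii, Jon99Cii, Jon99Fii, Jon65Aiii, Jon65Aiv, Jon25Bii, Jon25Bi, the 3 lower trypsins, Mal-A5, LysS and the 4 lower mucins. Of these, Muc96D was lower by its mean only. Its mutant pair 1 read 9.21 and 9.12, while its mutant pair 2 read 13.30 and 13.19, above both wildtype pairs.

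**Figure D3:**
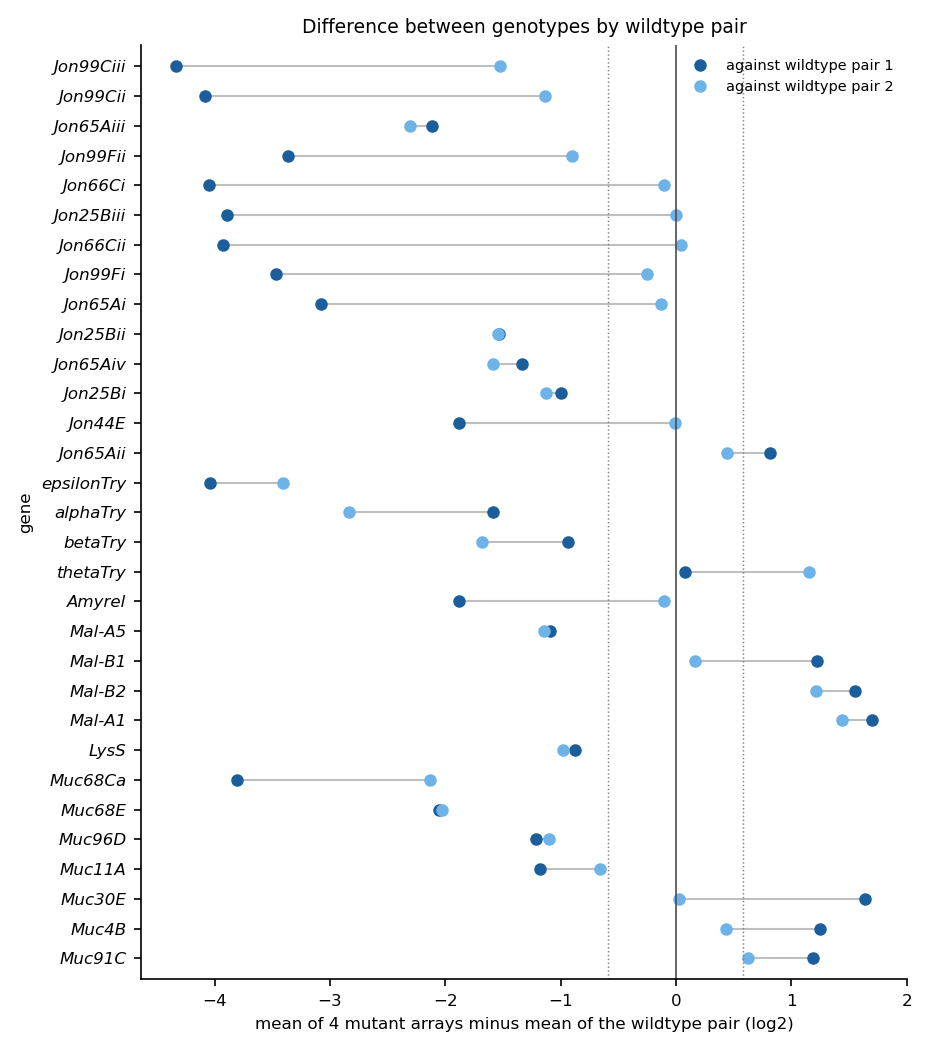
Mean of the 4 mutant arrays minus the mean of wildtype pair 1 (dark) and of wildtype pair 2 (light), on the log2 scale (horizontal), for each of the 31 genes (rows). Dotted lines mark 1.5-fold, and for Jon25Biii, Jon66Cii and Jon44E the light points lie at 0.00, 0.05 and 0.00 while the dark points lie at -3.89, -3.93 and -1.88.

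How many features were high in wildtype pair 1 alone was counted by a rule set after these values were seen, and so without a test. It asked that wildtype pair 1 exceed the highest other pair by over 1.5 on the log2 scale and that the other 3 pairs lie within 0.75 of each other. Of all features, 19 met it, and 7 of them were members: Jon66Ci, Jon66Cii, Jon25Biii, Jon99Fi, Jon65Ai, Jon44E and Amyrel. The others were CG18180, CG8560, CG17633, CG12951, CG17134, CG42500, CG31221, CG9672, CadN, fne, the alcohol dehydrogenase gene Adh and mag, which encodes a gut lipase. Adh is also 1 of the listed fat body markers. mag read 11.43 and 11.26 on wildtype pair 1, 8.74 and 8.59 on wildtype pair 2, and 8.17 to 8.33 in the mutant. All 19 were named genes, which the rule nearly ensures, because a high wildtype pair 1 raises the wildtype mean that the table selected on. For the 7 members the mutant mean lay between -0.25 and 0.05 of wildtype pair 2. Their mutant pairs differed from each other by at most 0.08. The rule itself asked for closeness within 0.75, so part of this was fixed in advance. Jon66Ci, Jon66Cii and Jon25Biii lay below the lower quartile of all transcripts on 6 of 8 arrays, Jon65Ai on 4 and Amyrel on 3. How far such low values can still fall is not known.

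Beside this pattern, the other marker lists moved as follows between wildtype pairs. Of 14 midgut markers 3 were listed, and the log2 of their summed signal was 13.11 to 13.18 on wildtype pair 1, 12.97 to 13.04 on wildtype pair 2 and 13.99 to 14.09 on the mutant arrays. These 3 were Myo31DF, an unconventional myosin, Vha100-4, a proton pump subunit, and esg, a progenitor cell transcription factor that discs also use. esg had the highest value of the 3 on every array and so weighs most in that sum. Defining midgut genes such as mex1 and GATAe were not listed, so the midgut label could not be checked on them. Salivary gland sums were 17.82 to 17.87 and 17.71 to 17.74 in wildtype pairs 1 and 2, haemocyte sums 13.99 to 14.02 and 13.34 to 13.38, and fat body sums 17.30 and 17.30 to 17.35. The part of any tissue in the high values of wildtype pair 1 was not tested.

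The mutant pairs were compared in the same way. limma called 12 members higher and 2 lower in mutant pair 2, beside 13.8% and 14.1% of all features (27.9% in either direction), and 17 did not pass. The 12 were Jon65Aiii, Jon65Aiv, Jon25Bi, Jon25Bii, Jon99Fii, alphaTry, betaTry, Mal-A1, Mal-B2, Muc96D, Muc68Ca and Muc11A, and the 2 were epsilonTry and Muc4B. At least 1.5-fold, 8 were higher and 1 was lower, beside 1.51% and 2.01% of all features. At least 4-fold, 2 were higher, Muc96D and Muc68Ca, beside 0.236% in either direction. Jon65Aiii stood 1.37 higher in mutant pair 2 (limma adjusted p = 1.9e-06), Jon25Bi 0.80 higher (limma adjusted p = 0.00036), and the difference for epsilonTry was -1.79 (limma adjusted p = 8.2e-07). Fat body sums were 13.26 to 13.35 on mutant pair 1 and 15.11 to 15.13 on mutant pair 2. Salivary gland sums were 13.78 to 13.81 and 13.60 to 13.63. Sums for the list of other digestive enzymes, described below, were 14.0 to 14.01 and 14.36 to 14.52. Single fat body genes were uneven, with a median of 0.837 over the 9 listed. Lsp1gamma, a larval storage protein, was 2.93 higher and apolpp, a lipid carrier, 2.46 higher in mutant pair 2. Fbp1, Adh and Lsp1alpha were 0.22, 0.25 and 0.29 higher, and Obp99b differed by -0.04. The part of fat body in the difference between mutant pairs was not tested.

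**Figure D4:**
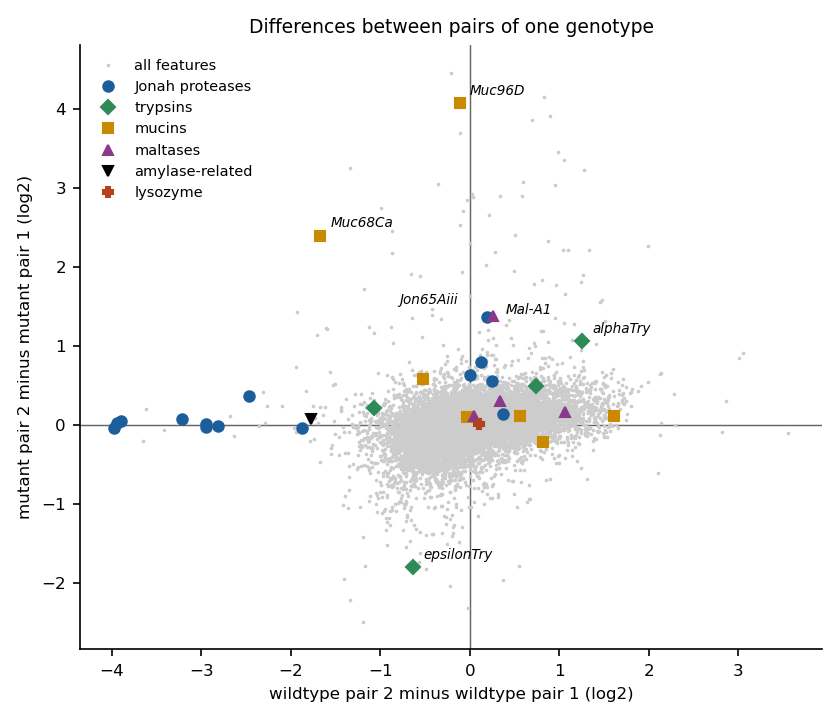
Difference between mutant pairs (pair 2 minus pair 1, log2, vertical) against the same difference between wildtype pairs (horizontal) for all features (grey) and for the 31 genes by family. Of the 14 Jonah proteases, 9 lie to the left, down to -3.97 for Jon66Cii, with vertical values up to 0.37 for Jon99Fii, and the other 5 lie near the middle with vertical values up to 1.37 for Jon65Aiii, while Muc96D stands at 4.08 and Muc68Ca at 2.40 on the vertical axis.

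Position along the chromosomes was not used by the rule, but it chose gene families by name, and genes of a family can lie side by side. No count was made for other families, so nothing is read from how many members were neighbours. By RefSeq order, 19 of the 31 genes stood next to another member with no protein-coding gene between, in 7 runs: Jon25Bi to Jon25Biii and Mal-B1 with Mal-B2 on arm 2L, thetaTry, alphaTry, epsilonTry and betaTry on 2R, Jon65Ai to Jon65Aiv and Jon66Ci with Jon66Cii on 3L, and the Jon99C and Jon99F genes on 3R. The members lay 6 on 2L, 8 on 2R, 9 on 3L, 6 on 3R and 2 on X, beside 722, 718, 720, 861 and 562 named genes. Neighbours did not always share a pattern. Jon25Biii was high in wildtype pair 1 alone, while Jon25Bi and Jon25Bii beside it were level in the wildtype and lower in the mutant. In the Jon65A run, Jon65Ai was high in wildtype pair 1 alone, Jon65Aii was higher in the mutant, and Jon65Aiii and Jon65Aiv were lower in the mutant. Both Jon66C genes, both listed Jon99C genes and both Mal-B genes had the same sign between genotypes and between wildtype pairs. epsilonTry, alphaTry and betaTry were lower in the mutant, and thetaTry beside them was higher.

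A list named other digestive enzymes held 29 genes, of which 10 were named in the authors' table. It also holds cathepsin, mannosidase and beta-galactosidase genes, which are not particular to the gut. With limma 5 fell and none rose, beside 4.46% of all features and 719 of the 3850 named genes that fell. Listed genes were selected by the same contrast, so nothing is read from this count or from those of the next lists. Their median difference was -0.83, beside 0.057 over all features, and since the table holds only genes changed at least 1.5-fold this median describes those genes alone. yip7, a serine protease, read 13.61, 13.46, 13.87 and 13.71 in the wildtype and 10.38, 10.34, 10.91 and 10.47 in the mutant, and fell by 3.14 (limma adjusted p = 0.0089), with wildtype pairs close together. LManII, an alpha-mannosidase, fell by 2.90 (limma adjusted p = 0.019). The beta-galactosidase gene Gal and the cathepsin genes cathD and CtsB were the other 3 that fell. Bace, an aspartic protease, differed by 1.91 and mag by -1.74, and neither passed (limma adjusted p = 0.18 and 0.3). LManVI was 3.06 higher in wildtype pair 2 than in pair 1, the opposite order to the 9 Jonah genes that limma called lower in pair 2.

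A list named mucin-related and peritrophic matrix genes gave 6 listed of 15, 3 higher and 3 lower in the mutant, with a median of -0.079. Its obst genes encode chitin-binding proteins that are not particular to the gut. limma called 2 falls, in Mur18B and obst-A, and no rise, where 1169 of the 3850 named genes passed in either direction. obst-A, a chitin-binding protein gene, fell by 2.01 (limma adjusted p = 0.011), and Mur18B fell by 0.93 (limma adjusted p = 0.029). Mur29B differed by -2.67 and Mur2B by 1.27 without passing (limma adjusted p = 0.077 and 0.067). Gut immune effectors gave 7 listed of 18, 4 higher and 3 lower in the mutant, with a median difference of 0.68. The 4 higher genes were PGRP-SC1a, PGRP-SC1b, DptB and AttD. limma called 2 falls, in PGRP-SC2 and PGRP-LC, and no rise, beside the same share of named genes. PGRP-SC2, a peptidoglycan-cutting amidase gene, fell by 1.70 (limma adjusted p = 0.029), and PGRP-LC, the receptor gene of the Imd pathway, fell by 0.88 (limma adjusted p = 0.046). Drsl2, for a drosomycin-like peptide, differed by -1.78 and PGRP-SC1a by 0.86, and neither passed (limma adjusted p = 0.13 and 0.11). Of the midgut markers, Myo31DF and esg rose by 1.34 and 0.79 (limma adjusted p = 0.041 and 0.045). Without mutant pair 1 limma called 0 of all features between genotypes and without mutant pair 2 it called 2 higher and 14 lower, with 829 and 867 higher and 1193 and 1217 lower at an unadjusted p under 0.05. The cause of that loss over all features was not tested.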

How the data were processed

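Total RNA of wing discs was copied into cDNA with oligo-dT, and the Cy3-labelled cDNA was read on one-colour arrays, per the labels' protocols. The deposited log2 values, 1 per transcript and array, cover 16637 transcripts. The submitters' processing notes name RMA and Partek and give no version. The authors' deposited table gives a ratio of wildtype over mutant, a signed fold change, p-values, and F statistics and sums of squares as scores. Only its names and ratio were used, and signs here are mutant minus wildtype. The sources used here state neither genome build nor probe design, and the number of arrays limits the precision. RMA brings arrays to like distributions, so a shift common to most genes may not show.

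RefSeq names (Release 6 plus ISO1 MT) were matched for 3850 genes, 2541 directly, 1079 through a synonym and 230 not at all. Of the members, 20 matched directly and 11 through a synonym. RefSeq served only for names, arms and gene order. Where a gene had several transcripts, the one of highest mean was used. limma 3.58.1 in R 4.3.3 (lmFit, eBayes, Benjamini-Hochberg over 16108 features, threshold 0.05) tested the genotypes on pair means, with 2 residual and 2.21 prior degrees of freedom, and the pairs on 8 arrays in 4 means, with 4 and 5.32. Members and lists were chosen with earlier results of these data known. Per family, array values are given for the genes with the highest wildtype mean (a rank over different probes, used only to pick genes to show), the largest genotype difference and the largest wildtype pair difference, and from each further list up to 4 genes with the largest genotype difference are named; other genes given by array were chosen after their values were seen. limma was tested on simulated data. Alternatives covered which arrays are averaged, blocks, normalisation, a filter on dim features, transcript choice, variance estimation and leaving out arrays or pairs. Python 3.11.15 made tables and figures.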

Additional observations from a re-analysis of the deposited data

Results flagged for a closer look

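Among 62 groups of 4 arrays (31 genes in 2 genotypes), 1 held an array apart from the others by Dixon's criterion. It was mutant array 2_2 for Jon65Aii, the highest of the mutant arrays at 9.76, where the group's median was 9.52 and the gap to the next array was 0.858 of the range. Chance marks about 1 in 20 such groups. Groups split into pairs, such as the wildtype values of Jon66Cii, are not found by this criterion, which looks for a single array.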

How the results depend on the processing

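The signs of 28 of the 31 differences between genotypes held under every alternative run. Alternatives that change only the variance, the filter, the blocks or which arrays are averaged leave the difference unchanged, so they could not turn a sign. Some signs held only by small differences without wildtype replicate 1, such as -0.004 for Jon44E, 0.027 for Muc30E and -0.105 for Amyrel. Without wildtype replicate 1, Jon25Biii turned to 0.003 (-3.888 without replicate 2) and Jon66Cii to 0.045 (-3.927). Without mutant replicate 1, Muc96D turned to 0.882 (-3.196 without replicate 2). The counts of called features (450 higher and 719 lower) moved more. They were 748 and 1138 with trended robust variances, 6893 and 5472 with arrays of one second number averaged, 3935 and 3691 with 8 arrays as separate samples, and 1446 and 1881 with pairs as a random block. With a replicate block 736 were higher, and 11 members were called in place of 6. With only 2 pairs, whose deviations correlated at 0.307 between genotypes, the numbers are not shown to pair the samples. Leaving out a pair gave 0 to 2476 higher and 0 to 2380 lower. The count of 0 came without mutant replicate 1, with limma, where 829 higher and 1193 lower had an unadjusted p under 0.05. Called members ranged from 0 to 22 over these omissions, and numbered 31 with arrays of one second number averaged, 20 with separate arrays and 19 with the random block. Leaving 1 pair assumes that it varies like the other genotype's pairs. The cause of these moves was not tested.

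Between wildtype pairs all counts stayed within 1.5 times, while 11 calls of single members were lost and 1 gained over 403 recalculations. Between mutant pairs, members called lower went from 2 to 1, by the loss of Muc4B, after quantile normalisation and without dim features, and leaving out single arrays gave 1 to 2, with 1129 to 2208 features higher and 1427 to 2258 lower. Of single members' calls between mutant pairs, 14 were lost and 2 gained.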
